A study of Mus musculus with 4 samples.

Results

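Homeobox, T-box and related genes that record the position of a cell along the body were measured in 4 libraries of cells sorted from mouse adipose tissue. The set held every gene whose symbol on the array was that of a clustered Hox gene or of a Meis, Pbx, Tbx, Zic, Irx, Alx, Prrx or Msx gene, together with Six2 to Six6, Shox2 and En1, which gave 80 of the 19057 genes measured. Each gene was represented by the probe selected on the highest mean intensity over the 4 arrays, so measured levels chose the probes, and the families were chosen with earlier results of these data known. Of the 80 genes, 40 were detected, meaning a detection p under 0.01 on 1 array or more, a share of 50% against 52.3% of all genes.

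RNA of cells sorted from the stromal vascular fraction was read on Illumina Mouse-6 V2 BeadChips, 1-colour arrays. The labels name 2 libraries as null GFP+ (numbers 1 and 3), 1 as het GFP+ (number 2) and 1 as null GFP- (number 3), all from adipose tissue of Black 6 mice aged 2 months, with the genotypes PPARG null and PPARG het. In AdipoTrak mice a tTA allele placed in the Pparγ locus drives TRE-H2B-GFP, so that GFP+ cells are adipose progenitor cells (APCs) whose Pparγ locus is or was active, and the controls carry this tTA allele too and are heterozygous for Pparγ. For these arrays the study names AT-PPARγ-LOF mice, in which AdipoTrak-driven Cre deletes a floxed Pparγ allele in the adipose lineage, in its results, and Sox-PPARγ-LOF mice, in which Sox2-Cre deletes it in the whole body, in its methods, and the labels do not settle which strain was used. The methods give the AdipoTrak mice a mixed background where the labels say Black 6. The labels give no depot, and the methods pool either subcutaneous or visceral fat before sorting, so the depot behind each library is not known here. Nothing says which mice each library came from, so p-values measure the spread between these libraries only.

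Pparg, the targeted gene, ran against the genotype labels. Its probe read 3217 and 2479 in the null-labelled GFP+ libraries, 188 in the het-labelled library and 209 in the null-labelled GFP- library, a difference of 4.84 on the log2 scale against the het-labelled library and 4.55 against the null-labelled GFP- library. Every direction below is therefore by label only, and each library is called null-labelled or het-labelled to say so. The deposited intensities share a single distribution with a median of 120.2, and a probe was taken as well above background over a signal of 154. Differences were computed after removal of background and are given on the log2 scale with their standard error (SE), from limma over all 4 libraries with Benjamini-Hochberg adjustment. The het-labelled and the null-labelled GFP- library stand alone in their groups, so their spread was assumed to equal that between the 2 null-labelled GFP+ libraries. Most of the weight in each SE is on a variance shared over all tested probes (4.03 prior degrees of freedom beside 1 residual). With 4 arrays there is little precision for any value.

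The Hox genes lie in 4 clusters, and the order of the genes along each cluster mirrors the order of the body regions where they are active, from anterior to posterior. Fibroblasts and adipose progenitors keep much of this code in the adult, so that fat depots of different body regions express different Hox, T-box and homeobox genes. Meis and Pbx proteins bind DNA together with Hox proteins, T-box proteins pattern limbs, heart and mesoderm, and Zic, Irx, En, Alx, Prrx, Shox and Msx proteins mark smaller territories of the embryo. In mice, Tbx15, Shox2, En1 and Hoxc9 are known for higher levels in subcutaneous fat, Hoxa5 and Hoxc8 for higher levels in visceral fat, and Zic1 marks brown fat.

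Of the 40 detected positional genes, 31 were detected on all 4 arrays. The mean of the null-labelled GFP+ libraries lay over 2-fold from the het-labelled library for 7 of 40 genes, or 17.5% (12.2% of all genes), and over 2-fold from the null-labelled GFP- library for 3 of 40, or 7.5% (12.7% of all genes). The homeobox gene Alx4 was higher in the null-labelled GFP+ libraries than in both other libraries, and Zic1, close to background, was lower than in the het-labelled library. Against the het-labelled library, 1 of 40 genes was higher and 1 was lower at an adjusted p under 0.05, where 1.30% and 2.63% of the 9975 genes tested were called higher and lower. Against the null-labelled GFP- library, 1 of 40 was higher (1.31% of all genes) and 0 were lower (2.66% of all genes) by limma. At an unadjusted p under 0.05 from limma, 6 were lower (9.12% of all genes). The methods' t-test called 0, but it has 1 degree of freedom here and can call little, so its counts say little. A share of 1 in 40 is near the background, so these counts name genes and say nothing of the families as a group. Markers of mast cells, neutrophils and macrophages were lower, and those of endothelium and adipocytes higher, in the same null-labelled GFP+ libraries, and their part in these differences was not tested.

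At an unadjusted p under 0.05, a weaker level, 3 of 40 genes were higher (Alx4, Tbx2 and Tbx3) and 8 were lower (En1, Hoxb2, Hoxd8, Irx2, Irx3, Msx1, Pbx4 and Zic1) against the het-labelled library, where 7.92% of all genes were higher and 9.01% lower. Against the null-labelled GFP- library, 2 were higher (Alx4 and Tbx2; 7.10% of all genes) and 6 were lower (Hoxd4, Hoxd8, Hoxd9, Irx3, Pbx4 and Zic1; 9.12% of all genes). Both comparisons use the same null-labelled GFP+ libraries, so these lists are not independent. Of the 7 genes over 2-fold from the het-labelled library, Tbx2, Pbx4 and Zic1 were not well above background on 1 side of the comparison.

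**Figure D1:**
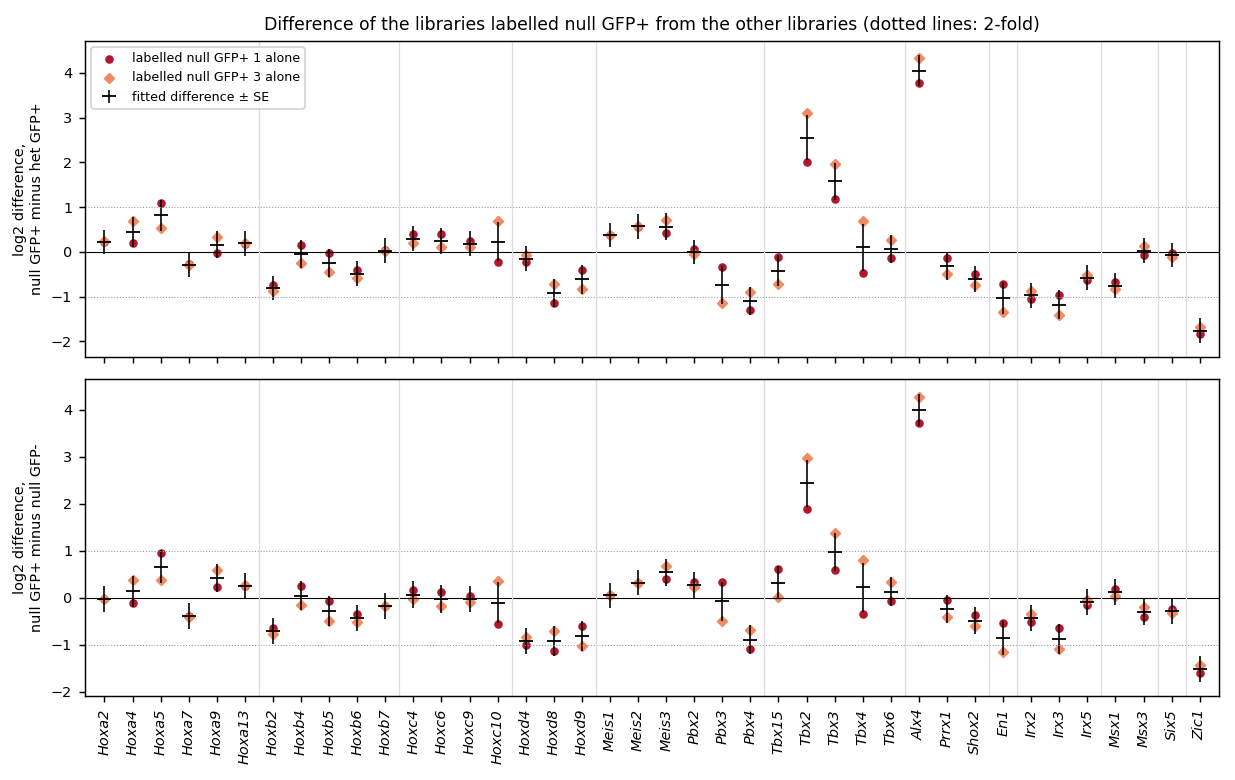
Log2 difference of the null-labelled GFP+ libraries from the het-labelled library (upper panel) and from the null-labelled GFP- library (lower panel) for the 40 detected genes. Crosses are fitted differences with their standard error, points are the 2 null-labelled GFP+ libraries taken alone, and dotted lines mark 2-fold. Alx4 (4.05 and 3.99) stood furthest above 0. The crosses of Zic1 and Tbx2 rest on signals under the detection signal on 1 side in both panels. Those of Pbx4 do so on 1 side in the upper panel and on both sides in the lower panel. Hoxa4, Hoxa13, Hoxb6, Hoxc4, Hoxd4, Pbx3 and Tbx4 were also under the detection signal in some libraries.

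The summed intensity of the 40 detected genes was 28617 and 27626 in the null-labelled GFP+ libraries, 27817 in the het-labelled library and 28055 in the null-labelled GFP- library, so the total hardly moved between libraries. Their median log2 difference was -0.03 against the het-labelled library and -0.05 against the null-labelled GFP- library, where the medians of all genes were 0.05 and 0.02. Well above background were 35 and 34 genes in the null-labelled GFP+ libraries and 34 genes in each of the other libraries. In all 4 libraries 30 genes passed that level, and 10 passed it in some libraries only. The other 40 genes were detected on no array, with intensities between 88.0 and 149, which says only that their signal could not be told from background.

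**Figure D2:**
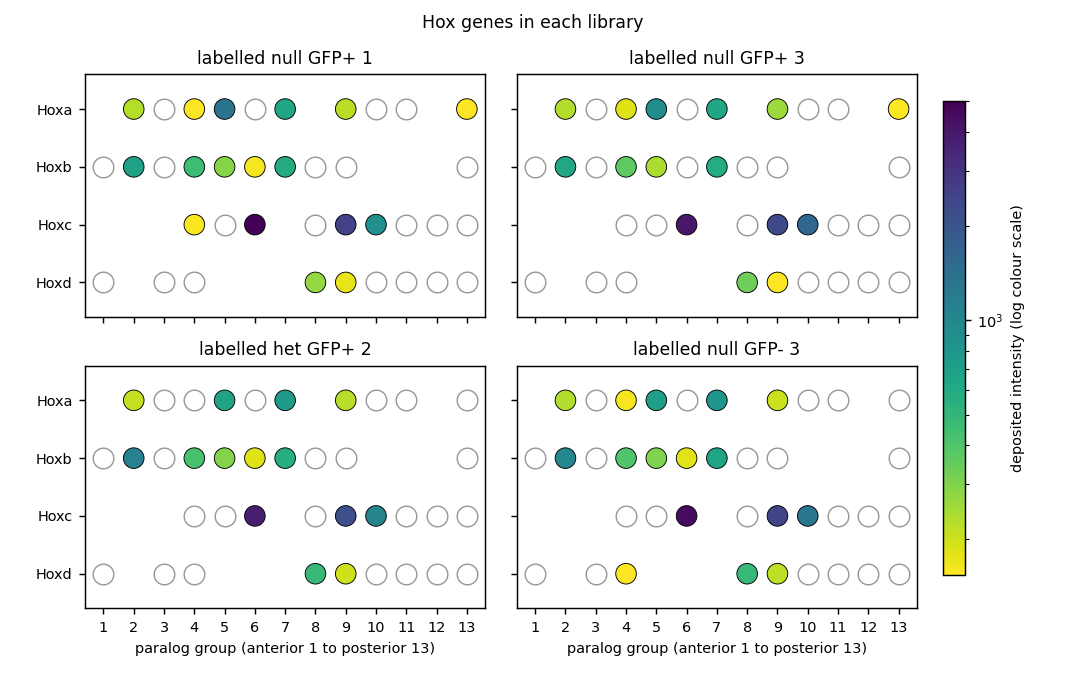
Hox genes by cluster (rows) and paralog group (columns, from anterior to posterior) in each library. Filled circles are probes over the detection signal of 154, with colour for deposited intensity on a log colour scale that is to be read across libraries for the same gene, and open circles are probes at or under it. Hoxc6, Hoxc9 and Hoxc10 were filled in all 4 panels, and most posterior genes were open.

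Hox genes of the trunk were read in all 4 libraries. Of 38 Hox genes on the array, 18 were detected, namely 6 of 10 in cluster A, 5 of 10 in cluster B, 4 of 9 in cluster C and 3 of 9 in cluster D, and 14 of the 18 were detected on all 4 arrays. By position along the clusters, 6 of 11 anterior genes, 7 of 11 central genes and 5 of 16 posterior genes were detected. The 5 posterior genes were Hoxa9, Hoxc9, Hoxd9, Hoxc10 and Hoxa13, the last of them on 2 of 4 arrays with intensities of 146 to 157. No Hox gene passed the adjusted threshold of limma in either comparison, and the methods' t-test called 0. At an unadjusted p under 0.05 by limma, 2 of 18 were lower against the het-labelled library (Hoxb2 and Hoxd8, named after their values were seen). Against the null-labelled GFP- library 3 were lower (Hoxd4, Hoxd8 and Hoxd9). Of all genes, 9.01% and 9.12% were lower at that level. Hoxd4 was over background in the null-labelled GFP- library alone, so it entered the test only through the library where it was high.

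Hoxc6, a gene of the middle trunk with the highest mean intensity of the set, read 4894 and 4029 in the null-labelled GFP+ libraries, 3748 in the het-labelled library and 4529.7 in the null-labelled GFP- library. Hoxc9, a posterior gene known for subcutaneous fat in mice, read 2529.7 and 2325 in the null-labelled GFP+ libraries, 2152 in the het-labelled library and 2469 in the null-labelled GFP- library. For both genes the null-labelled GFP- library lay between the null-labelled GFP+ libraries and the het-labelled library was the lowest, with differences of 0.25 (SE 0.29) and 0.18 (SE 0.28) against the het-labelled library. Hoxc10, its posterior neighbour, read 901 and 1602 in the null-labelled GFP+ libraries, 1035 in the het-labelled library and 1278 in the null-labelled GFP- library. Null-labelled GFP+ library 1 was the lowest and null-labelled GFP+ library 3 the highest for this probe of Hoxc10. The spread within that group was there larger than any difference between groups. A second detected probe of Hoxc10 read 675 and 887 against 581 and 693 in the same order of libraries. It was lowest in the het-labelled library, with a difference of 0.48 (SE 0.32, limma adjusted p = 0.563). Hoxc8, a neighbour known for visceral fat in mice, and Hoxb8 were detected on no array.

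Hoxa5, a central gene that takes part in the patterning of the lung and the axial skeleton, read 1309.7 and 917 in the null-labelled GFP+ libraries, 662 in the het-labelled library and 725 in the null-labelled GFP- library. Both null-labelled GFP+ libraries were above the others, by 0.81 (SE 0.35, limma adjusted p = 0.361) and by 0.66 (SE 0.35, limma adjusted p = 0.493), which does not pass the threshold. Hoxb2, Hoxd8 and Hoxd9 leaned the other way. Hoxb2, an anterior gene of hindbrain patterning, read 679 and 627 in the null-labelled GFP+ libraries, 1074 in the het-labelled library and 1005 in the null-labelled GFP- library, with differences of -0.81 (SE 0.28, limma adjusted p = 0.259) and -0.70 (SE 0.28, limma adjusted p = 0.337). Hoxd8, a central gene, read 273 and 334 in the null-labelled GFP+ libraries, 488 in the het-labelled library and 488 in the null-labelled GFP- library, with differences of -0.92 (SE 0.32, limma adjusted p = 0.261) and -0.92 (SE 0.32, limma adjusted p = 0.264). In both genes the null-labelled GFP+ libraries lay below the others, without passing the threshold.

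Hoxd9 read 175 and 155 in the null-labelled GFP+ libraries, 202 in the het-labelled library and 219 in the null-labelled GFP- library and differed by -0.82 (SE 0.31, limma adjusted p = 0.329) from the null-labelled GFP- library. Hoxd4, the detected gene with the lowest mean intensity, read 119 and 125 in the null-labelled GFP+ libraries, 127 in the het-labelled library and 155 in the null-labelled GFP- library and was over background in the null-labelled GFP- library alone. The median log2 difference against the het-labelled library was 0.21 for the 6 detected genes of cluster A, -0.24 for the 5 of cluster B, 0.24 for the 4 of cluster C and -0.62 for the 3 of cluster D. Against the null-labelled GFP- library these medians were 0.20, -0.28, -0.03 and -0.92. The last is the value of Hoxd4 itself, which entered the test only through the library where it was high. All 18 detected Hox genes together had medians of 0.09 and -0.07, close to those of all genes.

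The 250 bases before the start of Hoxa5 and Hoxd8 are shown because these genes leaned in opposite directions. They come from RefSeq on GRCm38.p6. Hoxa5 (chr6:52204588-52204837, minus strand) holds 28 CG pairs, in capitals. Hoxd8 (chr2:74704365-74704614, plus strand) holds 6 CG pairs and, in capitals, the letters AGGTCA, the core that nuclear receptors such as PPARγ bind, which start 135 bases before the gene. In the 300 bases counted across promoters Hoxa5 holds AGGTCA too, outside the bases shown.
Hoxa5: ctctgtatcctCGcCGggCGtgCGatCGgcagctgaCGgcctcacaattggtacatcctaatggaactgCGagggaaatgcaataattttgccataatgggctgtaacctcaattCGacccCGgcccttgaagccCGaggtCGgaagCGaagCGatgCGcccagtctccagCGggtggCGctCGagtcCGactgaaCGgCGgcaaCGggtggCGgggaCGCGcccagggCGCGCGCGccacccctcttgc
Hoxd8: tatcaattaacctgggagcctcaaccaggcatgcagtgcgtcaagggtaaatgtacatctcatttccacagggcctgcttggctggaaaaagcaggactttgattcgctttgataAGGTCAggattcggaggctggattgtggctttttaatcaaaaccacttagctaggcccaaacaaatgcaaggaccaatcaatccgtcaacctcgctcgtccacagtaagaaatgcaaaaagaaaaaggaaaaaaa

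**Figure D3:**
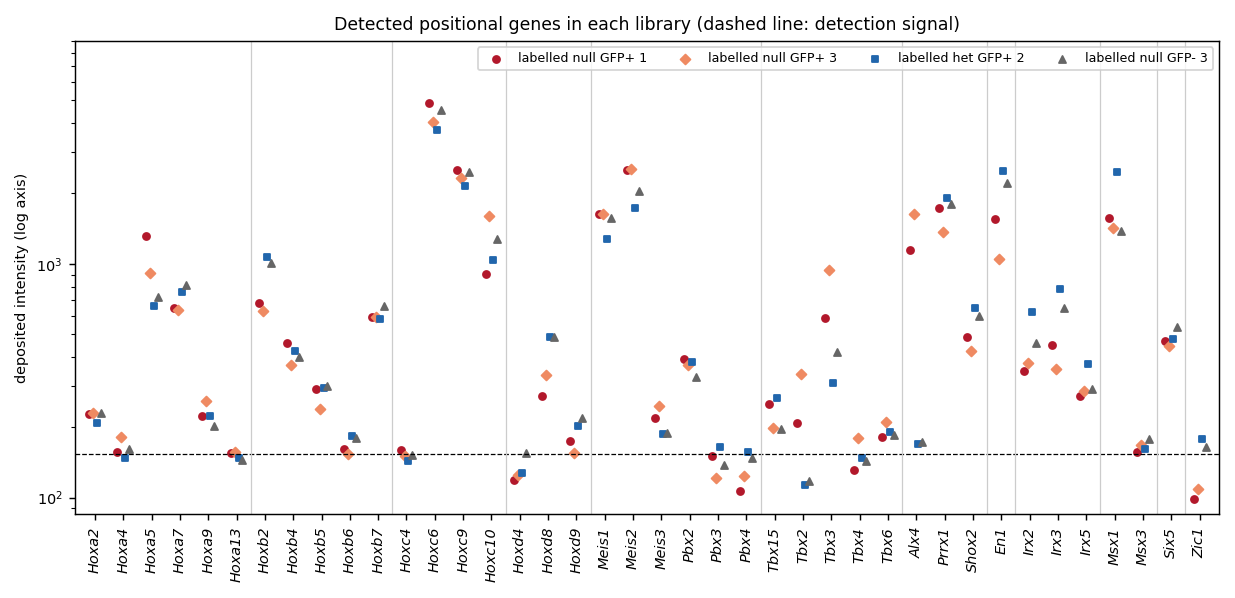
Deposited intensity (log axis) of the 40 detected positional genes in each of the 4 libraries, grouped by family, with the detection signal of 154 as a dashed line. For Alx4 both null-labelled GFP+ libraries read 1141 and 1636 and the other libraries 169 and 172, whereas for most genes the 4 points lay close together.

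Among the cofactors, all 6 Meis and Pbx genes on the array were detected and none passed the adjusted threshold of limma in either comparison. At an unadjusted p under 0.05, 1 was lower (Pbx4) in each, where 9.01% and 9.12% of all genes were lower. The methods' t-test, with 1 degree of freedom, called 0. Meis1, which binds DNA with Hox and Pbx proteins, read 1634 and 1630.1 in the null-labelled GFP+ libraries, 1272 in the het-labelled library and 1576 in the null-labelled GFP- library. Meis2, a close relative, read 2527 and 2542 in the null-labelled GFP+ libraries, 1742 in the het-labelled library and 2047 in the null-labelled GFP- library. Both were lowest in the het-labelled library, and the differences of 0.38 (SE 0.27, limma adjusted p = 0.584) and 0.57 (SE 0.27, limma adjusted p = 0.415) did not pass. Pbx4, a Pbx partner best known from the testis, read 106 and 124 in the null-labelled GFP+ libraries, 157 in the het-labelled library and 148 in the null-labelled GFP- library. It was over background in the het-labelled library alone and at least 1.04-fold lower in the null-labelled GFP+ libraries (adjusted p = 0.188 from limma), which does not pass. Such a bound is taken on the log2 scale after removal of background, where it compares the brighter group's mean with the detection signal, or with the dim signal where that is higher. On the deposited intensities, from which background was not removed, folds of dim probes are smaller.

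Alx4, a paired-type homeobox gene of limb bud and craniofacial mesenchyme, showed the largest difference of the 40 detected genes in both comparisons. Its probe read 1141 and 1636 in the null-labelled GFP+ libraries, 169 in the het-labelled library and 172 in the null-labelled GFP- library. Both null-labelled GFP+ libraries were far above both others, which lay just over the detection signal and differed little from each other. The log2 difference was 4.05 (SE 0.35, limma adjusted p = 0.0121) against the het-labelled library and 3.99 (SE 0.35, limma adjusted p = 0.0151) against the null-labelled GFP- library. Its size depended on the background, with 3.01 and 2.99 when no background was removed, and the call on the filter, with an adjusted p of 0.0680 and 0.0692 from limma when dim probes were kept in the test. The other 2 probes of Alx4 were detected on no array, so the difference rests on 1 probe.

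**Figure D4:**
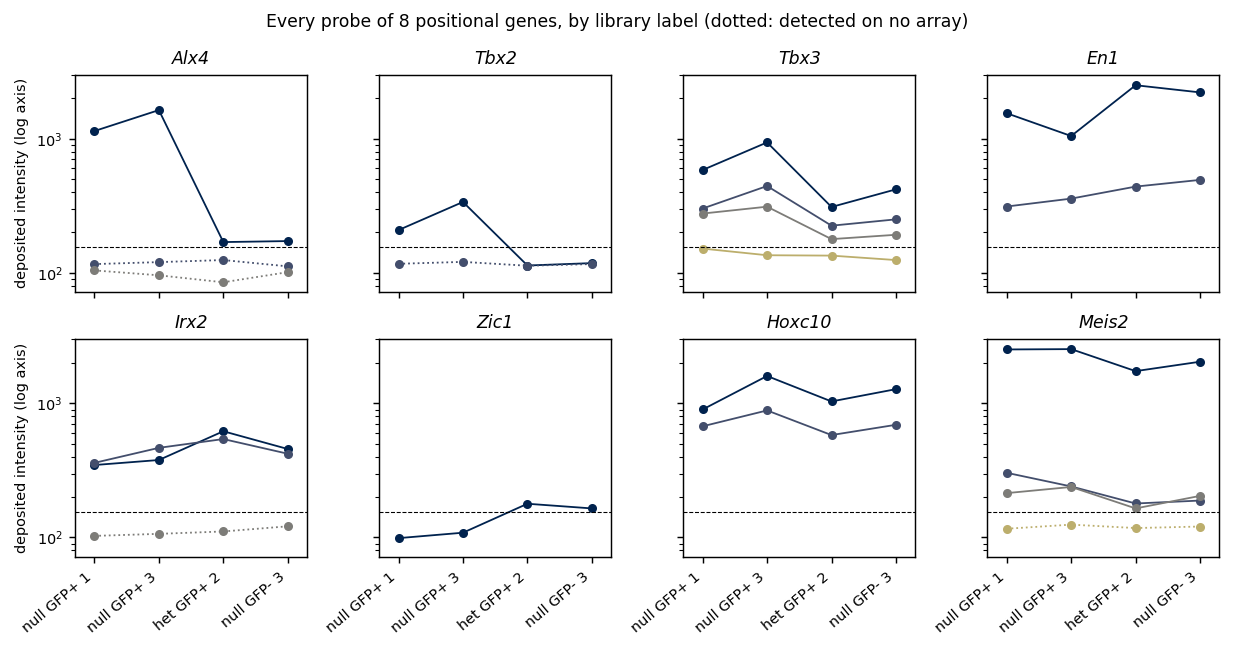
Deposited intensity (log axis) of every probe of 8 positional genes in the 4 libraries, by label, with the detection signal of 154 as a dashed line. Dotted lines are probes detected on no array, and lines join the values of the same probe. Brighter probes of Tbx3 and both probes of En1 moved the same way, whereas Alx4 and Tbx2 rest on 1 detected probe each.

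The other detected paired-type genes did not follow Alx4. Prrx1, a marker of limb and fat mesenchyme, read 1735 and 1370.3 in the null-labelled GFP+ libraries, 1907 in the het-labelled library and 1799 in the null-labelled GFP- library, with a difference of -0.32 (SE 0.30) against the het-labelled library. Shox2, a gene of limb growth known for higher levels in subcutaneous fat in mice, read 486 and 424 in the null-labelled GFP+ libraries, 644 in the het-labelled library and 597 in the null-labelled GFP- library. Shox2 read lower in both null-labelled GFP+ libraries than in the others, with differences of -0.61 (SE 0.29, limma adjusted p = 0.407) and -0.48 (SE 0.29, limma adjusted p = 0.558), without passing.

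Of 13 T-box genes on the array, 5 were detected, and none passed the adjusted threshold of limma in either comparison. At an unadjusted p under 0.05, 2 were higher (Tbx2 and Tbx3) and 1 was higher (Tbx2), where 7.92% and 7.10% of all genes were higher. The methods' t-test, with 1 degree of freedom, called 0. Tbx2, a transcriptional repressor of limb, heart and mammary development, read 208 and 338 in the null-labelled GFP+ libraries, 113 in the het-labelled library and 118 in the null-labelled GFP- library. It was over background in the null-labelled GFP+ libraries alone, so Tbx2 entered the test only through the libraries where it was high. After removal of background, and on that scale only, it was at least 2.72-fold higher in them than in each of the other libraries. Neither difference passed (adjusted p = 0.0764 and 0.0847 from limma). The fitted differences of 2.55 and 2.44 became 1.23 and 1.17 when no background was removed. Null-labelled GFP+ library 3 was over 2-fold above null-labelled GFP+ library 1 for Tbx2, and taken alone they gave 3.09 and 2.01 against the het-labelled library.

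Tbx3, the closest relative of Tbx2 and a repressor needed for mammary and limb development, read 585 and 939 in the null-labelled GFP+ libraries, 309.7 in the het-labelled library and 419 in the null-labelled GFP- library. Both null-labelled GFP+ libraries were above the others, by 1.57 (SE 0.41, limma adjusted p = 0.151) and by 0.98 (SE 0.41, limma adjusted p = 0.365), and neither passed. Taken alone, null-labelled GFP+ libraries 1 and 3 differed by 1.18 and 1.96 from the het-labelled library and by 0.59 and 1.37 from the null-labelled GFP- library. Further probes of Tbx3 read 302 and 444 against 225 and 250.4, and 277 and 311 against 178 and 192, in the same order of libraries, while the dimmest detected probe stayed between 124 and 152. Tbx15, known for higher levels in subcutaneous fat in mice, read 252 and 199 in the null-labelled GFP+ libraries, 267 in the het-labelled library and 197 in the null-labelled GFP- library, with no separation of the groups. Tbx1, a gene of the pharyngeal arches that is also used as a marker of beige fat, was detected on no array.

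Zic1, a zinc-finger gene of the dorsal neural tube and somites, was the 1 gene of 4 Zic genes on the array that was detected. It read 98.9 and 109 in the null-labelled GFP+ libraries, 178 in the het-labelled library and 165 in the null-labelled GFP- library. The null-labelled GFP+ libraries were below the detection signal and the other libraries just over it, so Zic1 entered the test only through the libraries where it was high. Zic1 was at least 1.39-fold lower in the null-labelled GFP+ libraries than in the het-labelled library (adjusted p = 0.0444 from limma) and at least 1.17-fold lower than in the null-labelled GFP- library (adjusted p = 0.0659 from limma). The fitted differences were -1.76 and -1.51. With no background removed they were -0.79 and -0.67 and passed in neither comparison (adjusted p = 0.0915 and 0.151 from limma), so a call this close to background depends on the processing.

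En1, an engrailed homeobox gene of the central dermomyotome and dorsal dermis, read 1549.5 and 1048 in the null-labelled GFP+ libraries, 2507 in the het-labelled library and 2216 in the null-labelled GFP- library. Both null-labelled GFP+ libraries were below the others, with differences of -1.03 (SE 0.36, limma adjusted p = 0.267) and -0.85 (SE 0.36, limma adjusted p = 0.378), which does not pass. Taken alone, null-labelled GFP+ libraries 1 and 3 differed by -0.73 and -1.34 from the het-labelled library. A second probe of En1 read 312 and 358 against 439.5 and 493, lower in the same libraries, with library 1 and not library 3 the lower of the pair.

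Irx3, an Iroquois homeobox gene linked to fat mass through the FTO locus, read 448 and 354 in the null-labelled GFP+ libraries, 782 in the het-labelled library and 650.3 in the null-labelled GFP- library. Both null-labelled GFP+ libraries were below the others, with differences of -1.18 (SE 0.32, limma adjusted p = 0.17) and -0.87 (SE 0.32, limma adjusted p = 0.301). Irx5, its neighbour in the same gene cluster, read 273 and 287 in the null-labelled GFP+ libraries, 371 in the het-labelled library and 292 in the null-labelled GFP- library, highest in the het-labelled library, with a difference of -0.57 (SE 0.27). Irx2, named after its value was seen, read 347 and 378 in the null-labelled GFP+ libraries, 620.0 in the het-labelled library and 457 in the null-labelled GFP- library, with a difference of -0.97 (SE 0.28, limma adjusted p = 0.19), also highest in the het-labelled library. All 3 detected Irx genes had negative differences in both comparisons, with medians of -0.97 and -0.43. Of all 9975 genes, 5493 and 5209 had positive differences. No Irx gene passed the adjusted threshold, with 2 and 1 lower at an unadjusted p under 0.05 by limma. At that level 9.01% and 9.12% of all genes were lower.

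Msx1, a homeobox gene that keeps mesenchymal cells undifferentiated, read 1575 and 1424 in the null-labelled GFP+ libraries, 2464 in the het-labelled library and 1388 in the null-labelled GFP- library. The het-labelled library stood above the other libraries, with a difference of -0.76 (SE 0.28, limma adjusted p = 0.292), whereas the null-labelled GFP- library lay close to the null-labelled GFP+ libraries (0.12, SE 0.28). Of 5 genes from Six2 to Six6 on the array, Six5 alone was detected and its intensities ran from 447 to 538.

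Promoters of Zic1, En1 and Irx3, picked from the genes that were lower or leaned lower, are shown for their content of CG pairs. Such pairs are a feature of the CpG islands on which Polycomb proteins gather. In the same stretch Hoxa5, which leaned higher, holds 28 and Hoxd8, which leaned lower, holds 6. A link between CG pairs and direction was not tested. In the sequences below, the 250 bases before each start from RefSeq on GRCm38.p6, CG pairs are in capitals. Zic1 (chr9:91365769-91366018, minus strand) holds 27 of them, En1 (chr1:120602237-120602486, plus strand) 19 and Irx3 (chr8:91801655-91801904, minus strand) 13.
Zic1: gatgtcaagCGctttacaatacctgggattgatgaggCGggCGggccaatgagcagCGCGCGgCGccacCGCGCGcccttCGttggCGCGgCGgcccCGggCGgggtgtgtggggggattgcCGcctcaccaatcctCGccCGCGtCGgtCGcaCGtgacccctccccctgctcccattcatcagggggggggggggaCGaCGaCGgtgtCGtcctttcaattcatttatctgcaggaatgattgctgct
En1: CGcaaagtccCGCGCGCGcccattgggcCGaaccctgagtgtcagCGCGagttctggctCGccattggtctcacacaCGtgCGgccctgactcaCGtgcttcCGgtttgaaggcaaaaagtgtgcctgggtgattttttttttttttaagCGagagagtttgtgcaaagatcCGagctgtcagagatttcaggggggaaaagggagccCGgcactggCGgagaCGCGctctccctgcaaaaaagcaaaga
Irx3: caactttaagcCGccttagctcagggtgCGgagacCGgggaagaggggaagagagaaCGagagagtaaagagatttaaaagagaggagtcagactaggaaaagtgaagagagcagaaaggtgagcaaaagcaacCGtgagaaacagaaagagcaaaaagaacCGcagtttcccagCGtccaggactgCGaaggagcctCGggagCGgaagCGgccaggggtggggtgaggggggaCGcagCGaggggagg

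Across the set, 59 promoters of 53 genes had a RefSeq sequence of 300 bases, reaching 50 bases into the gene. Their median ratio of observed to expected CG pairs was 0.688 against 0.384 over all 32851 promoters, and 59.3% against 35.8% lay over 0.6. Promoters of the detected genes had a median of 0.603 and those of undetected genes 0.729. The letters AGGTCA, searched on both strands, were in 9 of 59 promoters (15.3%) and in 16.3% of all promoters, a share near the background. TGATTGAT, to which Hox and Pbx proteins bind as a pair, was in 3 promoters (Hoxa2, Hoxd11 and Tbx6, 5.08%) and in 0.746% of all promoters. TGATTTAT, the form preferred by posterior Hox proteins, was in 0 and in 0.977% of all promoters. A match is a description of the letters and not of binding.

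The het-labelled library and the null-labelled GFP- library were within 2-fold of each other for the detected genes. Of 40 genes, 0 were over 2-fold higher and 0 over 2-fold lower in the het-labelled library than in the null-labelled GFP- library, where 1.26% and 1.79% of all genes were. With 1 library each, this difference was not tested and no p is given. The highest was that of Msx1, at 0.87 on the log2 scale. Between null-labelled GFP+ libraries 3 and 1, 2 genes were over 2-fold higher in number 3 after removal of background (Tbx2 and Tbx4, 2.59% of all genes) and 0 were over 2-fold lower (1.36% of all genes). Tbx4, a gene of hindlimb identity, read 131 and 181 in the null-labelled GFP+ libraries, 148 in the het-labelled library and 143 in the null-labelled GFP- library and was over the detection signal in null-labelled GFP+ library 3 alone.

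Genes that act beside the positional set were read from lists. Of 51 other regional transcription factors, 25 were tested, with medians of -0.10 and -0.04. Past the adjusted threshold, none was lower and 1 was higher in each comparison, where 1.30% and 1.31% of all genes were higher. Dlx3, a Distal-less homeobox gene of hair follicle, bone and placenta, was that gene and read 540.2 and 492 in the null-labelled GFP+ libraries, 146 in the het-labelled library and 179 in the null-labelled GFP- library. After removal of background it was at least 6.84-fold higher in the null-labelled GFP+ libraries than in the het-labelled library (adjusted p = 0.0127 from limma), and higher by 2.30 (SE 0.28, limma adjusted p = 0.0249) than in the null-labelled GFP- library. Foxp1, a forkhead repressor, read 428 and 444 in the null-labelled GFP+ libraries, 918 in the het-labelled library and 810.3 in the null-labelled GFP- library, with a difference of -1.26 (SE 0.27, limma adjusted p = 0.0979) against the het-labelled library, which does not pass. Of 37 Polycomb and trithorax genes, whose proteins hold Hox genes silent or active, 31 were tested, with medians of 0.08 and 0.01. None passed the adjusted threshold of limma in either comparison. At an unadjusted p under 0.05, 1 and 0 were higher, where 7.92% and 7.10% of all genes were higher.

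In summed intensity, markers of mast cells, neutrophils and macrophages differed far more between the libraries than the positional genes did. Opposite changes can cancel in such a sum, and Alx4 alone differed by 4.05 on the log2 scale against the het-labelled library. The summed intensity of 10 mast cell markers was 1756 and 1813 in the null-labelled GFP+ libraries. It was 106630.2 in the het-labelled library and 108015 in the null-labelled GFP- library, with all 10 markers lower in both comparisons. Of these markers, 5 and 3 were well above background in the null-labelled GFP+ libraries and 10 in each other library. Neutrophil markers summed to 1521 and 1680.0 against 31031 and 29664, with 9 and 7 of 10 lower. Of them, 2 and 4 were well above background in the null-labelled GFP+ libraries, against 10 and 9. Macrophage markers summed to 5058 and 2610.1 against 27004 and 16736, with 8 of 11 lower in each comparison. Markers of endothelium (12 genes, 14306 to 16064 against 6947 to 9535) and adipocytes (9 genes, 45163 to 58588 against 20758 to 24898) were higher in the null-labelled GFP+ libraries. Past the threshold were 8 and 9 of 12 and 5 of 9. Of the adipocyte markers, 8 and 9 were well above background in the null-labelled GFP+ libraries and 3 in each other library. Markers at background on 1 side entered the test only through the libraries where they were high, and low sums include background signal. Of all genes, 2.63% were lower and 1.30% higher past the threshold against the het-labelled library. Against the null-labelled GFP- library these shares were 2.66% and 1.31%. Skeletal muscle markers summed to 5900.3 in the het-labelled library and to 1494 to 1935 in the others.

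Stromal markers, which define the progenitor fraction, were well above background in all 4 libraries for all 17 genes and summed to 300749 to 306580 in the null-labelled GFP+ libraries and 354057 to 359928 in the others. Of these, 1 (Pi16) was lower past the threshold in both comparisons, and 5 and 6 of 17 had positive differences. At an unadjusted p under 0.05 by limma, 4 were lower in each, and 1 and 0 were higher. Of all genes, 9.01% and 9.12% were lower and 7.92% and 7.10% higher at that level. Mural markers summed to 6420.3 and 10668 in the null-labelled GFP+ libraries, 4707 in the het-labelled library and 8337 in the null-labelled GFP- library, with 1 of 9 (Notch3) higher in both comparisons. Mesothelial markers summed to 638 and 864 against 910.1 and 945, with 1 of 5 (Upk3b) lower in both comparisons. The part of these cells in the differences of Alx4, Tbx2, Zic1 and the other positional genes was not tested. In such bulk libraries fewer cells of a type and less RNA per cell cannot be told apart.

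**Figure D5:**
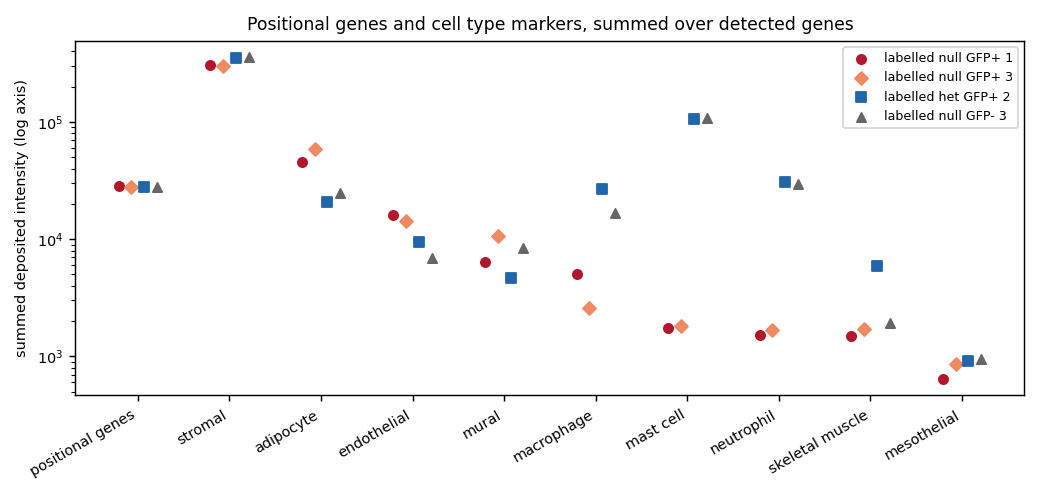
Summed deposited intensity (log axis) of the 40 detected positional genes and of markers of 9 cell types in each library. The positional genes lay between 27626 and 28617 in all libraries, whereas mast cell markers lay at 1756 and 1813 in the null-labelled GFP+ libraries and at 106630.2 and 108015 in the others.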

How the data were processed

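Cells had been sorted by flow cytometry, and their RNA was labelled with biotin and hybridized to Illumina Mouse-6 V2 BeadChips. The authors deposited a probe intensity on a linear scale for each library and, in a second table, signals with a detection p-value per probe. The normalization behind these intensities is not stated in the sources used here, but sorted values of the arrays differ from their mean by at most 0.380%. That table's 4 signal columns carry names found in no label, so they were left unused, and the deposited detection p-values were used only as the number of arrays under a threshold.

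Background was removed with normexp, fitted on the common distribution matched by rank to the detection p-values (mean 108, standard deviation 13.6), because the planned fit assumed raw signals. After an offset of 16, values were taken to log2 and quantile normalized (limma 3.58.1, R 4.3.3). Of 45281 probes, 34885 had 1 gene symbol, 18 several and 10378 none. The test covered 17379 probes of 9975 genes, those whose detection p was under 0.01 for 1 array or more, and 63 of the 151 probes of the 80 positional genes were among them. Differences came from lmFit and eBayes with 3 groups by label, two-sided (1 residual and 4.03 prior degrees of freedom), and the fit was tested on simulated data. A threshold of 0.05 on the adjusted p was used.

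Genes were named by a rule, with exceptions: those past the threshold or over 2-fold apart in either comparison, genes known for differences between fat depots, and the detected genes with the highest and lowest mean intensity. Hoxb2, Hoxd8, Hoxd9, Irx2, Meis2, Tbx4, Six5 and Foxp1 are given with values but fall outside this rule. The members, the lists and the rule were chosen with earlier results of these data known. Promoter sequences are from RefSeq on GRCm38.p6. Alternatives covered the background, offset, normalization, filter, variance model, libraries, probe per gene, test and each library labelled null GFP+ left out. Figures were drawn with matplotlib 3.10.9 from tables made with pandas 2.3.3.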

Additional observations from a re-analysis of the deposited data

How the results depend on the processing

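Of 442 values recomputed under alternatives for 18 named genes, 424 kept their direction and, where a p was computed, their side of the threshold. With a null-labelled GFP+ library left out, direction alone was compared. Most of these genes did not pass in the main fit, so this share says little about the calls of Alx4 and Zic1. All 9 values that lost the threshold belonged to these calls. Against the het-labelled library, 2 positional genes were higher (Alx4 and Tbx2) when normexp was fitted without detection p-values or with an intensity trend in eBayes, and 0 with no filter on dim probes (Alx4 adjusted p = 0.0680 from limma) or by the methods' t-test (adjusted p = 0.624). In the same comparison, 0 were lower, without Zic1, with no background correction, an offset of 50, no filter, detection on all 4 arrays, an intensity trend or the methods' t-test, where Zic1 had an adjusted p of 0.0816 to 0.608, except under detection on all 4 arrays, which removed it. Against the null-labelled GFP- library, 2 were higher (Alx4 and Tbx2) with an intensity trend, 0 with no filter or by the methods' t-test, and 1 was lower (Zic1, adjusted p = 0.0462 from limma) with the probes of a gene averaged. Over all alternatives the difference of Alx4 ran from 3.01 to 4.33 against the het-labelled library. Without replicate 1 or replicate 3 of the null-labelled GFP+ libraries, the median difference of the positional genes ran from -0.10 to -0.066 against the het-labelled library and from -0.13 to -0.068 against the null-labelled GFP- library. Hoxc10 turned from -0.10 to 0.039 against the null-labelled GFP- library with probes averaged. Between the null-labelled GFP+ libraries, 0 genes were over 2-fold apart with no background correction or an offset of 50. The cause of these changes was not tested. With a detection p under 0.05 on 1 array or more, 48 of 80 genes were detected. With a detection p under 0.01, 31 were detected on all 4 arrays. By the methods' rule, over 2-fold at a raw p under 0.05 from their t-test, 0 positional genes passed in either comparison. With 1 degree of freedom that test can call little, and Alx4 did not pass it either. No paired analysis was possible. The null-labelled GFP+ and null-labelled GFP- groups share replicate number 3 alone, and the null-labelled GFP+ and het-labelled groups share none. Signal close to background limits small differences of dim genes such as Zic1, Tbx2 and Pbx4.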

Other observations

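Several positional genes were read by more than 1 detected probe. The 5 detected probes of Prrx1, the mesenchymal homeobox gene, all had negative differences between the null-labelled GFP+ libraries and the het-labelled library, from -0.65 to -0.22, and none passed the threshold. The 3 detected probes of Meis2 all had positive differences, from 0.57 to 1.03, and none passed. The second probe of Irx2 read 360.1 and 466 in the null-labelled GFP+ libraries, 542 in the het-labelled library and 421 in the null-labelled GFP- library, so it separated the groups less than the brighter probe did, with a difference of -0.51 against -0.97. The second probe of Hoxd9 had differences of -0.88 and -0.59, in the same direction as the first (-0.62 and -0.82).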
